A study of Mus musculus with 2 samples.

Results

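Il33, Il34, Csf1 and Il6 are 4 cytokine genes of the gut stroma, chosen by name, and all 4 were among the 16381 genes listed for the colon and the 18262 listed for the small intestine. They were followed through 2 droplet single-cell libraries of stromal cells from healthy, untreated mice, 1 library per tissue. Live cells that carried neither CD45, an immune marker, nor EpCAM, an epithelial marker, had been sorted after digestion for 60 minutes (colon) or 45 minutes (small intestine). The number, strain, age and sex of the mice are not given in the sources used here. The libraries held 6018 and 9359 annotated cells with medians of 6598 and 5943 UMIs per cell (a UMI marks 1 captured RNA molecule), and 21 barcodes occurred in both. With 1 library per tissue no difference between tissues has a replicate check, and every interval given here covers counting error only. The authors' labels gave 3 kinds of fibroblast: CD81- FBs (3631 colon and 2823 small intestinal cells), CD81+ trophocytes (875 and 1913) and SEMFs, myofibroblasts high in PDGFRa (1105 and 1109). Lymphatic endothelial cells (LECs, 217 and 2498), blood endothelial cells (BECs, 53 and 524) and smooth muscle cells (SMCs, 125 and 468) made up nearly all of the rest.

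IL-33 is a nuclear cytokine of the IL-1 family that is released from damaged cells and acts through its receptor ST2 (Il1rl1), paired with Il1rap, on innate lymphoid cells, regulatory T cells and mast cells. CSF1 and IL-34 are separate ligands of the same receptor, Csf1r, on which the survival of macrophages depends, and IL-34 also binds Ptprz1 and Sdc1. IL-6 signals through Il6ra and the shared chain Il6st to STAT3, and its transcription in fibroblasts is known to rise quickly after inflammatory or mechanical stimulation. The sort removed immune and epithelial cells, so their part in making or reading these factors cannot be seen here.

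In the mouse genome (GRCm38) Il33 lies on chromosome 19 from 29925114 to 29960718 on the plus strand, and Il6 on chromosome 5 from 30013114 to 30019981 on the plus strand. Il34 lies on chromosome 8 from 110741829 to 110805924 and Csf1 on chromosome 3 from 107741048 to 107760469, both on the minus strand. RefSeq promoter entries (GRCm38.p6) matched 3 of the 4 genes, without Il34. The 250 bases upstream of the first transcribed base are shown for Il6 and Csf1, the members with a match to an NF-kB motif, since Il6 is a known target of that factor. Capitals mark the motif matches.

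Il6, chr5:30012864-30013113, plus strand: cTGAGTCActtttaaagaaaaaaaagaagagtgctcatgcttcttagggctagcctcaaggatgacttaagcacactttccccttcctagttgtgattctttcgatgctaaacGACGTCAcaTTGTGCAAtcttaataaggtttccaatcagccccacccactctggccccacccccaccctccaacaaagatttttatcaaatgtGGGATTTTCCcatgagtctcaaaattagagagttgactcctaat
Csf1, chr3:107760470-107760719, minus strand: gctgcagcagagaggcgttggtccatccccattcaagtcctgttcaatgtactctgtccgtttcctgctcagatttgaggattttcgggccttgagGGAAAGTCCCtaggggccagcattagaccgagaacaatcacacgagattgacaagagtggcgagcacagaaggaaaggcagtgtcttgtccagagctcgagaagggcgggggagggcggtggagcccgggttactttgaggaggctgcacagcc

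Counted back from the first transcribed base, the Il6 window held an AP-1 motif (TGANTCA) at -249 to -243, a CRE (GACGTCA) at -137 to -131, a C/EBP motif (TTGNGNAA) at -128 to -121 and an NF-kB motif (GGGA, any base, TTTCC) at -44 to -35. The Csf1 window held the NF-kB letters on its other strand at -154 to -145. Both strands were searched, no match overlapped another, and the same letters occurred in the 250 upstream bases of 0.356% (NF-kB), 11.7% (C/EBP), 2.78% (CRE) and 6.75% (AP-1) of 32851 RefSeq promoters. The windows of the 2 Il33 start sites held none of these letters. A match is a description of the sequence and not a bound site.

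Each cytokine had its own distribution over the labels, and for Il33, Il34 and Il6 the leading label did not change between the libraries. Il33 was highest in LECs, Il34 in SEMFs and Il6 in trophocytes, whereas Csf1 was spread over all 3 fibroblast labels and SMCs. The levels below are a gene's UMIs as counts per 10 to the sixth UMIs of the label (CPM), with exact 95% Poisson intervals in parentheses where precision matters.

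**Figure D1:**
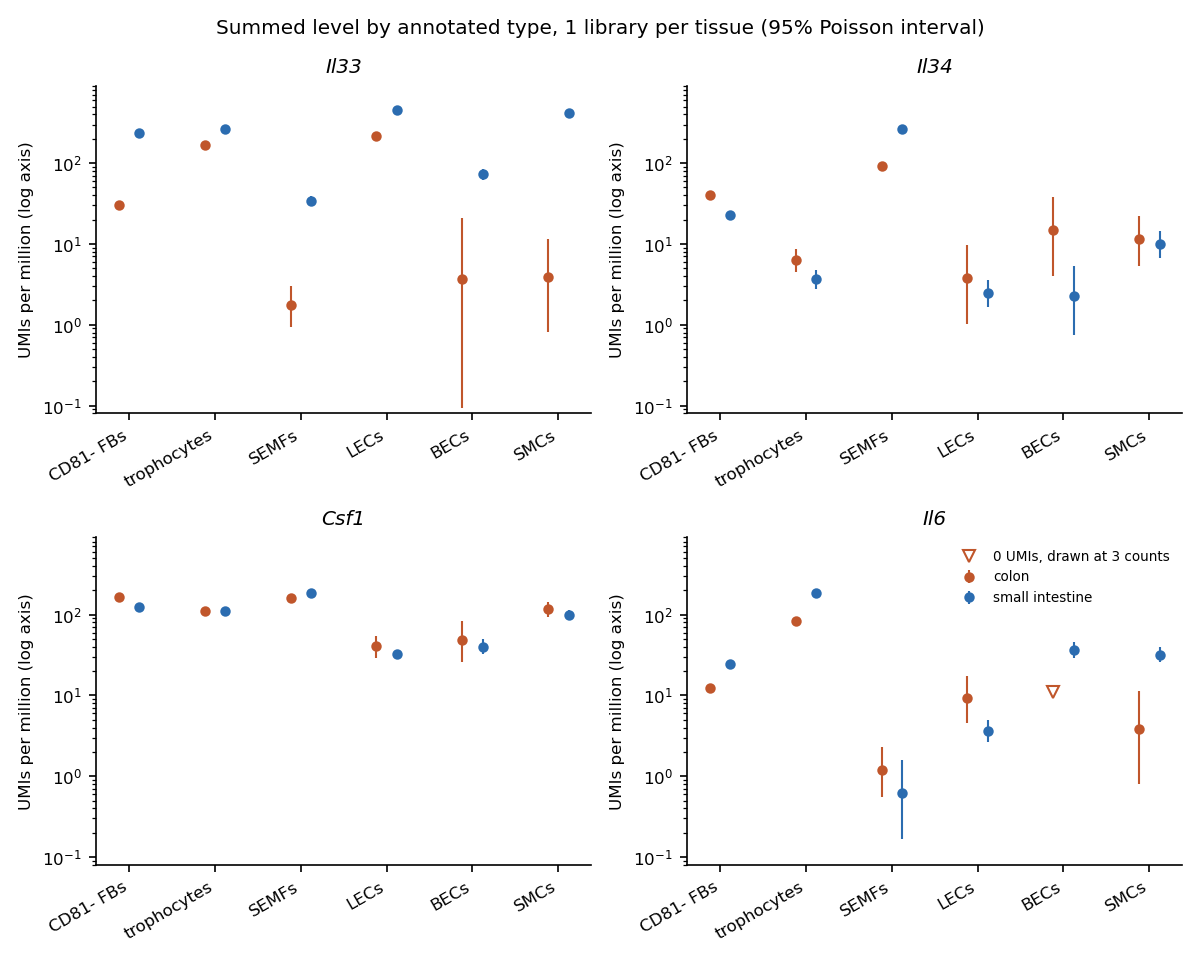
Level of each cytokine gene in CPM of the label (log axis) for the 6 annotated types of the colon (orange) and small intestine (blue), 1 library each. Bars are 95% Poisson intervals, and the open triangle is a label with 0 UMIs drawn at 3 counts. Il33 peaked in LECs, Il34 in SEMFs and Il6 in trophocytes of both libraries, and Csf1 stayed between 32.4 and 187 CPM in all labels.

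Il33, the alarmin, stood at 216 CPM (189 to 246) in colon LECs and 453 CPM (440 to 465) in small intestinal LECs. Colon trophocytes had 169 CPM, CD81- FBs 30.2, SMCs 3.88 (3 UMIs), BECs 3.71 (1 UMI) and SEMFs 1.75. The order among colon fibroblasts was therefore steep, with trophocytes 5.58 times (5.08 to 6.13) above CD81- FBs and CD81- FBs 17.3 times (10.1 to 32.6) above SEMFs. In the small intestinal library SMCs had 422 CPM, trophocytes 267, CD81- FBs 239, BECs 72.5 and SEMFs 34.2. There the intervals of LECs and SMCs overlapped, and trophocytes exceeded CD81- FBs by a factor of 1.12 (1.07 to 1.17). LECs were 26.7% of the small intestinal cells and gave 32.7% of that library's Il33 UMIs. In the colon library, where LECs were 3.61% of the cells, 51.9% of the Il33 UMIs came from trophocytes.

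Il34, the second ligand of Csf1r, had its highest level of the 6 compared labels in SEMFs, the fibroblasts beneath the epithelium. Its level in SEMFs was 91.6 CPM (84.8 to 98.7) in the colon and 266 CPM (253 to 278) in the small intestine. CD81- FBs followed with 40.4 and 23.0 CPM, and trophocytes had 6.28 and 3.66. The step from SEMFs to CD81- FBs was 2.27 times (2.05 to 2.50) in the colon library and 11.6 times (10.4 to 12.8) in the small intestinal one. LECs, BECs and SMCs carried 4 to 28 Il34 UMIs each, or 2.28 to 14.8 CPM. A small colon label outside the comparisons, pericytes, held 10 Il34 UMIs in 4 of its 8 cells, or 288 CPM (138 to 530). The more numerous CD81- FBs gave 57.1% and SEMFs 39.0% of all Il34 UMIs of the colon library, whereas SEMFs gave 74.9% of those of the small intestinal library.

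Csf1, the macrophage growth factor, differed least between labels. Colon CD81- FBs had 167 CPM, SEMFs 159, SMCs 117, trophocytes 112, BECs 48.2 and LECs 40.4. The first 2 of these did not differ beyond counting error (ratio 1.05, 0.985 to 1.12). Small intestinal SEMFs had 187 CPM, CD81- FBs 125, trophocytes 111, SMCs 100, BECs 40.1 and LECs 32.4. In both libraries the endothelial labels were below every fibroblast label and below SMCs.

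Il6, the acute phase cytokine, was concentrated in trophocytes, at 83.4 CPM (76.4 to 90.8) in the colon and 186 CPM (179 to 193) in the small intestine. CD81- FBs had 12.5 and 24.6 CPM, and SEMFs had 1.21 CPM (9 UMIs) and 0.613 CPM (4 UMIs). Trophocytes thus exceeded CD81- FBs 6.69 times (5.80 to 7.72) and 7.58 times (6.89 to 8.36). They were 14.5% and 20.4% of the cells and gave 61.7% and 79.7% of the Il6 UMIs. Small intestinal BECs had 36.9 CPM and SMCs 32.1, values whose intervals overlapped each other, whereas colon BECs had 0 Il6 UMIs, with an upper Poisson limit of 13.7 CPM, and colon SMCs had 3. LECs were low in both libraries, at 9.39 CPM (10 UMIs) and 3.66 CPM (41 UMIs).

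In trophocytes Il6 was also more uneven among positive cells than the other members. In small intestinal trophocytes 29.6% of the Il6-positive cells held 5 or more Il6 UMIs, with up to 29 in 1 cell, and the 68 cells with most of it, of 672 positive cells, held 35.4% of the UMIs. The corresponding colon values were 12.3%, 25 UMIs and 39.4% (20 of 195 cells). Il33, the next most uneven, had 30.6% of its UMIs in the top 47 of 466 positive colon trophocytes and 30.4% in the top 136 of 1352 small intestinal ones. For Csf1 in CD81- FBs, 3.16% (colon) and 2.36% (small intestine) of the positive cells held 5 or more UMIs of that gene. Among Il33-positive cells, those with 5 or more were 1.45% of colon CD81- FBs and 18.7% of small intestinal ones.

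Shares of positive cells were compared after each cell was thinned to 3000 UMIs, which left out 310 colon and 1059 small intestinal cells below that depth. Il33 was detected in 42.5% (35.6 to 49.7) of colon and 69.8% (67.7 to 71.8) of small intestinal LECs, in 33.3% and 46.7% of trophocytes and in 7.83% and 39.2% of CD81- FBs. As a gauge of background in cells of like depth, colon SEMFs were Il33-positive in 3 of 1060 cells, or 0.283%. Il34 was detected in 20.5% (18.1 to 23.0) and 50.2% (47.1 to 53.3) of SEMFs, against 1.00% and 0.462% of LECs. Csf1 reached 24.4% to 41.6% in the 6 fibroblast groups and 8.22% to 11.5% in LECs. Il6 was detected in 14.4% (12.1 to 17.0) and 24.7% (22.7 to 26.7) of trophocytes and in 0.189% and 0.200% of SEMFs. Without thinning, the Il6 shares of trophocytes were 22.3% and 35.1%, and the Il33 shares of CD81- FBs 13.3% and 57.5%.

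RNA released from broken cells can place fibroblast transcripts in droplets of other cells, so the endothelial and SMC values were set beside Dcn, a fibroblast proteoglycan gene detected in 34.5% of colon and 24.2% of small intestinal LECs at 3000 UMIs. Per Dcn UMI, LECs held 47.3 times (colon) and 81.8 times (small intestine) as many Il33 UMIs as fibroblasts did. Small intestinal BECs held 29.0 times as many Il33 and 40.6 times as many Il6 UMIs per Dcn UMI. For Il6 in LECs the factor was smaller, 4.45 in the colon and 1.82 in the small intestine. Colon BECs and SMCs were below the fibroblast ratio for Il33, at 0.363 and 0.463 times, and small intestinal SMCs were at 0.900 times for Il6 and 4.32 times for Il33. The Il33-positive BECs of the small intestine had 476 CPM of Lyve1, a lymphatic marker, against 65.1 CPM in the negative ones, and Pecam1 was at 891 and 1039 CPM. The Il6-positive BECs there had 22.2 CPM of Lyve1 against 129. For Csf1 in SMCs the factor was 4.22 (colon) and 1.72 (small intestine) per Dcn UMI, but 1.02 and 1.33 per UMI of the collagen gene Col3a1. Csf1-positive LECs had 1000 CPM (colon) and 548 CPM (small intestine) of Dcn, against 578 and 193 CPM in Csf1-negative ones. Small intestinal BECs went the other way, at 23.8 against 181 CPM. The part of fibroblast RNA in these Csf1 levels was not tested.

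The labels were compared with markers of each type. Every one of the 6 fibroblast markers was highest in a fibroblast label, 8 of 8 SEMF markers led in SEMFs, and SMCs led for 6 of 6 smooth muscle markers, in each library. For LECs this held for 6 of 6 (colon) and 5 of 6 (small intestine) markers, for BECs for 7 of 7 and 6 of 7, and for trophocytes for 5 of 7 in both. CD81- FBs led for 3 of 5 and 2 of 5 markers of Pdgfra-low fibroblasts. Summed immune markers reached 174 CPM in colon BECs and at most 44.6 CPM elsewhere, and summed epithelial markers at most 26.5 CPM. The small intestinal SMC label carried fibroblast transcripts, with Dcn at 7428 CPM against 1556 CPM in colon SMCs. Summed Pdgfra-low markers were at 1786 CPM in colon SMCs and 9872 CPM in small intestinal CD81- FBs, against 10236 CPM in the small intestinal SMC label. Within that label the share of Il33-positive cells was 33.6%, 54.5% and 71.1% in the lowest, middle and highest tertile of cells by summed fibroblast markers. By summed smooth muscle markers it was 61.5%, 65.7% and 31.7%. The part of the fibroblast transcripts in the Il33 level of this label was not tested.

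The question put by the design is how stromal cells of the colon differ from those of the small intestine. Pooled over the 3 fibroblast labels, colon and small intestine had 47.6 and 217 CPM of Il33 and 22.0 and 79.0 CPM of Il6. The levels of Il34 were 44.6 and 54.0 CPM and those of Csf1 157 and 129 CPM. On the log2 scale the colon to small intestine ratio was -2.19 (-2.26 to -2.12) for Il33, -1.84 (-1.95 to -1.73) for Il6, -0.27 (-0.37 to -0.18) for Il34 and 0.28 (0.22 to 0.33) for Csf1. So 2 of the 4 genes, Il33 and Il6, lay at -1 or below, as did 9.47% of the 13307 genes with at least 100 UMIs, and their ratios were above those of 1.51% and 2.34% of these genes. The median gene lay at -0.17, which brings Il34 to -0.10 relative to it. Cells per type and RNA per cell are separate in these data, but the pooled value also reflects the mix of labels, since trophocytes were a larger part of the small intestinal fibroblasts. With the 3 labels weighted equally the ratios were -1.43 for Il33, -1.08 for Il34, 0.0546 for Csf1 and -1.12 for Il6.

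**Figure D2:**
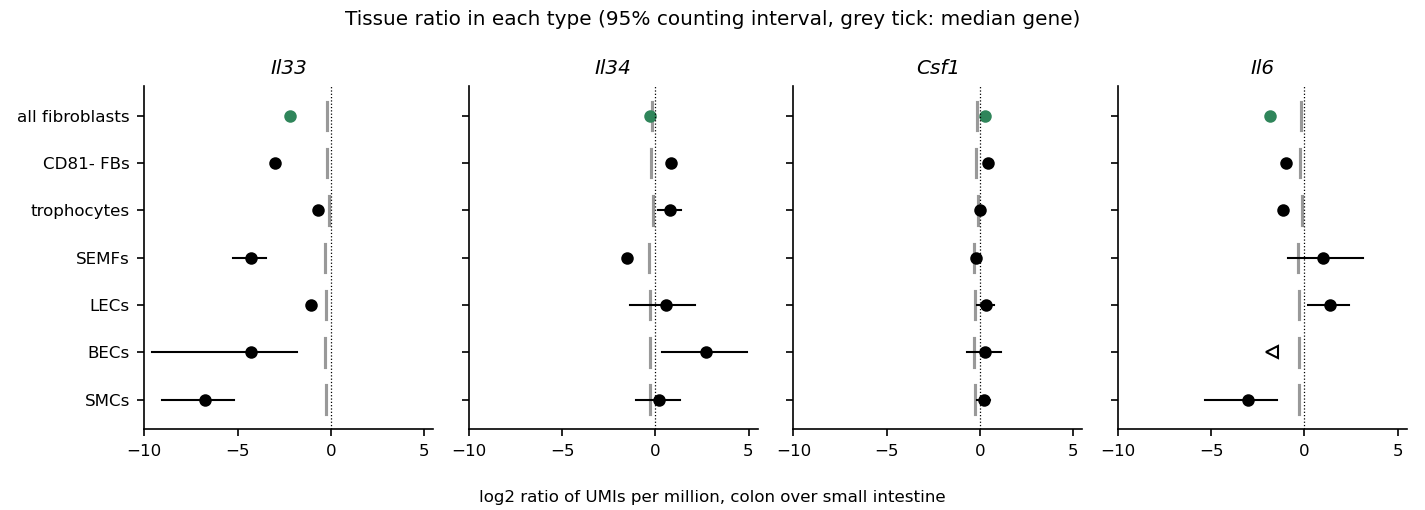
Log2 ratio of CPM in the colon over the small intestine for each cytokine gene, in all fibroblasts (green) and in each annotated type (black), with 95% counting intervals. The grey tick is the median over genes in that type, and the open triangle is an upper bound from 0 colon UMIs. Il33 lies left of 0 in every type, Csf1 stays near 0, and Il34 falls on either side.

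Il33 was lower in the colon in all 6 labels. The log2 ratio was -2.98 (-3.09 to -2.87) in CD81- FBs, where 10.4% of genes lay at -1 or below, and -0.66 (-0.76 to -0.57) in trophocytes. SEMFs stood at -4.29 (-5.22 to -3.49) and LECs at -1.07 (-1.27 to -0.88). The ratios of BECs, -4.29 (-9.60 to -1.79), and SMCs, -6.76 (-9.04 to -5.21), rested on 1 and 3 colon UMIs. The small intestinal SMC label also carried the fibroblast transcripts described above. The 2 smallest differences were thus those of trophocytes and LECs, and CD81- FBs of the small intestine exceeded those of the colon 7.90-fold.

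Il34 did not move in 1 direction. SEMFs had less of it in the colon, with a log2 ratio of -1.54 (-1.67 to -1.41), whereas CD81- FBs had more, at 0.81 (0.65 to 0.98), and so did trophocytes, at 0.78 (0.15 to 1.39), on 40 and 55 UMIs. BECs stood at 2.70 (0.37 to 4.92) on 4 and 5 UMIs. The intervals of LECs (-1.38 to 2.10) and SMCs (-1.04 to 1.35) held 0. The near-equal pooled level of this gene therefore combined a lower level in the label where it was highest with a higher level in the most numerous one.

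Csf1 was close to equal in the 2 tissues. Its log2 ratio was 0.42 (0.35 to 0.49) in CD81- FBs, -0.23 (-0.35 to -0.12) in SEMFs and 0.02 (-0.11 to 0.15) in trophocytes. Relative to the median gene of the label, which lay at -0.33 in SEMFs, the SEMF value was 0.10, so its direction depended on the scaling. LECs, BECs and SMCs gave 0.32, 0.26 and 0.22, with intervals that held 0. No label passed 1 or -1 for this gene.

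Il6 was lower in the colon in trophocytes, with a log2 ratio of -1.16 (-1.30 to -1.02), and in CD81- FBs, at -0.98 (-1.19 to -0.77). In trophocytes 8.24% of genes lay at -1 or below. SMCs stood at -3.05 (-5.35 to -1.45) on 3 colon UMIs, and BECs at -1.73 or less, with 3 counts (11.1 CPM) set in place of the 0 colon UMIs. The interval of SEMFs (-0.86 to 3.13) held 0. LECs stood on the other side, at 1.36 (0.20 to 2.38), where 3.45% of genes lay at 1 or above, on 10 colon UMIs in 5 cells. Without the cell richest in Il6 of each library (4 UMIs in the colon) it was 0.94, below the mark of 1. Those 5 cells had 1867 CPM of Dcn after thinning against 595 CPM in the Il6-negative LECs, and the part of fibroblast RNA in the LEC value was not tested. At a log2 ratio of -1 or below, Il33 counted as lower in 5 labels (CD81- FBs, SEMFs, LECs, BECs and SMCs), Il34 in SEMFs and Il6 in trophocytes, BECs and SMCs. Of all genes, 15.1% lay there for SEMFs, 15.4% for LECs, 19.6% for BECs and 17.3% for SMCs. At 1 or above, Il34 in BECs and Il6 in LECs counted as higher. The share of all genes there was 6.46% for CD81- FBs, 4.23% for trophocytes, 5.36% for SEMFs, 3.1% for BECs and 3.37% for SMCs. Relative to the median gene of the label, Il33 in LECs was at -0.80 and Il34 in CD81- FBs at 1.04. Whether Il33 in LECs and Il34 in CD81- FBs passed the mark thus depended on the scaling. Colon BECs held 4 Il34 UMIs, where fibroblast RNA in proportion to Dcn would give 2.58, and small intestinal BECs held 5 against 1.36. Dcn was at 1895 CPM in colon BECs and 190 CPM in small intestinal ones. Per Dcn UMI, Il6 in SMCs was at 1.00 (colon) and 0.900 (small intestine) times the fibroblast ratio. The part of fibroblast RNA in these calls was not tested.

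The colon library contained cells of both sexes by their transcripts, with 1751 cells that had UMIs of Y-linked genes but none of Xist (the Y-linked set) and 2700 with the reverse (the Xist set). Y-linked UMIs were found in 73.7% of small intestinal cells, and Xist was not listed for that library. In colon fibroblasts Il34 had 58.0 CPM in the Y-linked set and 33.8 CPM in the Xist set, a log2 difference of 0.78 (0.62 to 0.94). It was seen in CD81- FBs, 0.88 (0.66 to 1.09), and in SEMFs, 0.69 (0.43 to 0.94). Il6 differed by 0.45 (0.23 to 0.67) in the same direction and Csf1 by 0.13 (0.04 to 0.21), while the interval of Il33, 0.12 (-0.03 to 0.27), held 0. By label, the Il33 interval lay above 0 in trophocytes, 0.23 (0.03 to 0.42). It held 0 in CD81- FBs (-0.41 to 0.10) and in SEMFs (-4.46 to 1.23). How many animals each set comes from is not known, so sex and animal cannot be told apart. With the Y-linked set alone, the Il34 ratio of colon to small intestine in pooled fibroblasts changed sign, from -0.27 to 0.10, and with the Xist set alone it was -0.68. Within labels Il34 kept its directions, at 1.25 and 0.38 in CD81- FBs and -1.22 and -1.91 in SEMFs. The Il6 ratio of LECs was 0.14 with the Y-linked set, on 1 colon UMI, and 2.28 with the Xist set, on 9. Between these sets the log2 interval in LECs was -7.60 to 0.71, which holds 0. For Il6 the pooled ratio was -1.54 and -1.99, and for Il33 -2.10 with the Y-linked set.

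**Figure D3:**
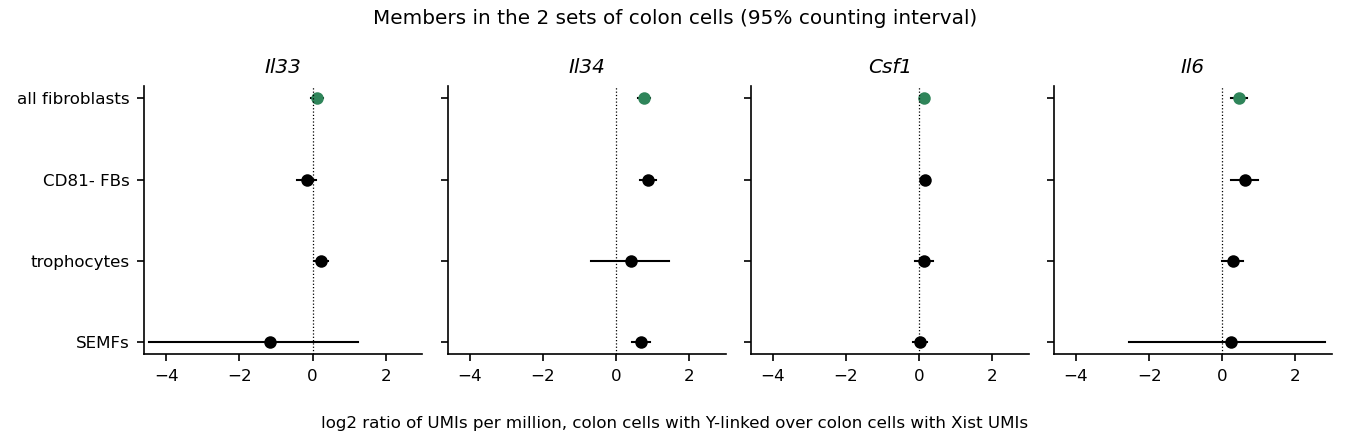
Log2 ratio of CPM in the colon cells of the Y-linked set over those of the Xist set, in all fibroblasts (green) and each fibroblast label (black), with 95% counting intervals. Il34 lies right of 0 in all fibroblasts (0.78), CD81- FBs and SEMFs. Il33 lies at 0.12 in all fibroblasts, with an interval that holds 0, and right of 0 in trophocytes (0.23).

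Whether the cytokines share cells was read from co-detection at 3000 UMIs per cell: the number of cells with both genes over the number expected if the genes were independent within each label. Over the 3 fibroblast labels the 12 ratios (6 pairs in 2 libraries) ran from 0.811 to 1.09, and the 95% Poisson interval of each held 1. Csf1, for example, was found with Il33 in 555 small intestinal fibroblasts against 557 expected (0.996, 0.915 to 1.08) and in 166 colon fibroblasts against 172. Within single fibroblast labels, 26 pairs had at least 5 expected cells. A 95% interval can miss 1 by counting error alone, and no allowance was made for this number of pairs. The interval lay below 1 for 1 pair and above 1 for none.

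That pair was Il33 with Il34 in small intestinal CD81- FBs. Of 2696 cells, 1058 had Il33 and 154 had Il34, and 35 had both against 60.4 expected, a ratio of 0.579 (0.403 to 0.805). It was 0.598 at 1500 UMIs per cell and 0.721 without thinning. Colon CD81- FBs had a ratio of 0.890 (0.558 to 1.35), an interval that holds both 1 and the small intestinal value. Without thinning the colon ratio was 0.712, from 62 cells against 87.1 expected, close to the 0.721 of the small intestine, and at 1500 UMIs it was 0.24. A difference between the tissues in this pair was thus not detectable. In small intestinal SEMFs the ratio was 1.14 (0.797 to 1.58). Outside the fibroblasts, Csf1 and Il6 met in 7 small intestinal LECs against 0.822 expected (8.51, 3.42 to 17.5), and the 10 Il6-positive LECs carried 2267 CPM of Dcn against 212 CPM in the others.

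**Figure D4:**
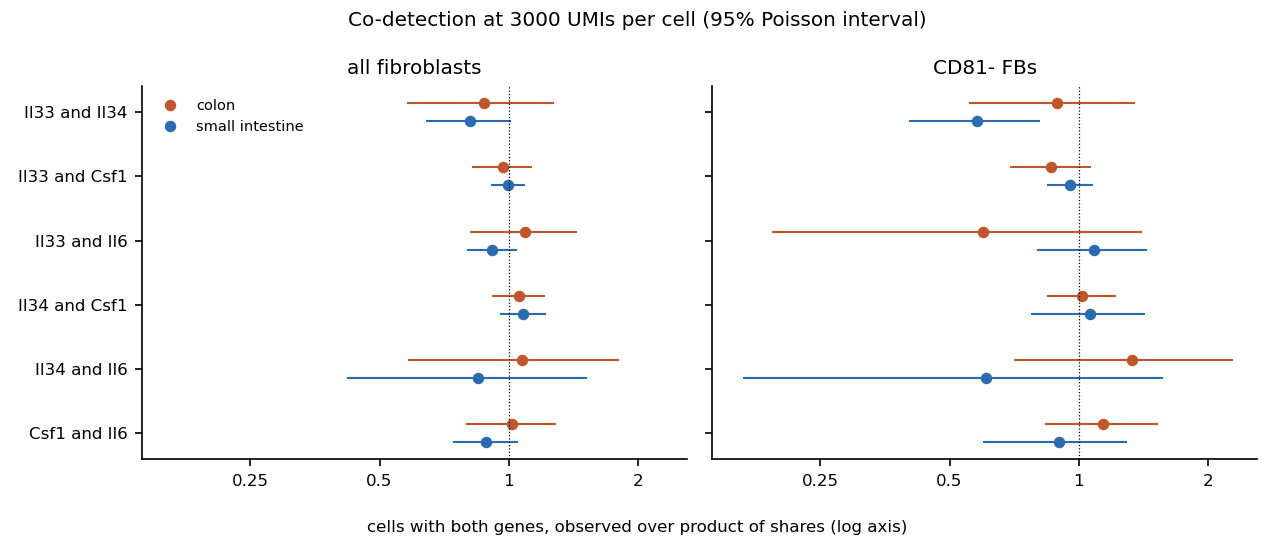
Number of cells with both genes over the number expected from the separate shares, at 3000 UMIs per cell (log axis), for the 6 pairs in all fibroblasts (left) and in CD81- FBs (right) of the colon (orange) and small intestine (blue). Bars are 95% Poisson intervals. Il33 with Il34 in small intestinal CD81- FBs lies at 0.579, with an interval below 1.

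Cells with several of the cytokines were uncommon at this depth. No member was detected in 49.7% of colon and 38.5% of small intestinal CD81- FBs, nor in 43.5% and 28.3% of trophocytes. Over both libraries 1 fibroblast, a small intestinal CD81- FB, had all 4 after thinning. The most frequent pair in small intestinal SEMFs was Il34 with Csf1, the 2 ligands of Csf1r, with no other member, in 20.8% of cells. In small intestinal trophocytes Il33 with Csf1 (10.6%) and Il33 with Il6 (7.67%) were the most frequent pairs.

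The members were next followed along other expression axes within a label, by ranking its cells on the summed UMIs of a gene list and splitting them into tertiles of near-equal size. Il6 rose with the immediate early genes (Fos, Jun, Egr1 and 9 others), the fast response genes that tissue digestion is also known to induce. In colon trophocytes the Il6-positive share was 5.49%, 13.6% and 24.3% from the lowest to the highest tertile, and in small intestinal trophocytes 14.3%, 25.1% and 34.6%. Small intestinal CD81- FBs went from 0.445% and 1.00% to 11.4%, and colon CD81- FBs from 1.56% and 3.29% to 4.42%. All 4 series thus increased, with the lowest and highest tertiles apart beyond their intervals. Csf1 stayed between 37.3% and 39.7% in the tertiles of colon CD81- FBs. Il33 had a different course in each label, from 5.89% to 10.1% in colon CD81- FBs and from 51.8% to 41.9% in small intestinal trophocytes. The digestion times of the tissues differed, and their part in the Il6 levels cannot be told apart from tissue. In the lowest tertile, small intestinal trophocytes were Il6-positive more often than colon ones (14.3%, 11.7 to 17.3, against 5.49%, 3.11 to 8.90). The tertiles were cut within each library and are not matched between tissues. The summed immediate early UMIs of the lowest tertile were also higher in the small intestine, at a mean of 35.5 against 23.0 per cell.

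**Figure D5:**
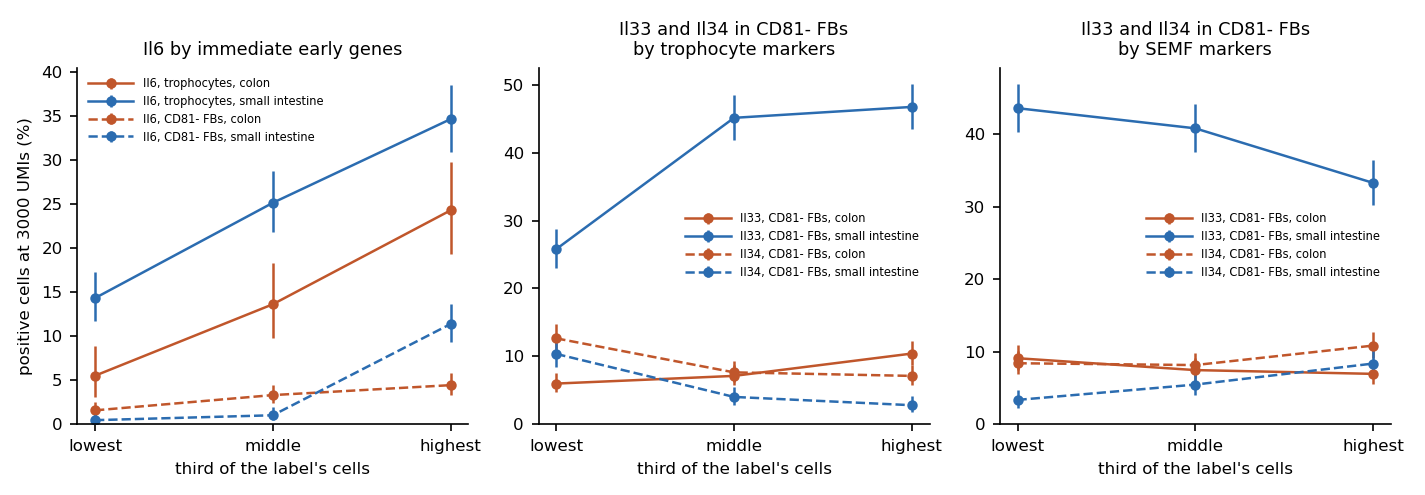
Percent of cells positive at 3000 UMIs in the lowest, middle and highest tertile of a label's cells, ranked by the summed UMIs of immediate early genes (left), trophocyte markers (middle) or SEMF markers (right), for the colon (orange) and small intestine (blue). Bars are 95% Clopper-Pearson intervals. Il6 rises from left to right in all 4 series of the first panel, and Il33 and Il34 run in opposite directions in small intestinal CD81- FBs.

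Within CD81- FBs, Il33 and Il34 sorted towards opposite neighbours. Along the trophocyte markers (Cd81, Grem1, Pi16, Ackr4, Cd34, Dpp4 and Ly6c1) the Il33-positive share in the small intestine was 25.8%, 45.2% and 46.8%, and the Il34-positive share fell from 10.3% in the lowest to 2.78% in the highest tertile. The colon had the same directions with a smaller range, 5.97%, 7.11% and 10.4% for Il33 and 12.6%, 7.63% and 7.11% for Il34. Along the SEMF markers the small intestinal shares turned around, with Il33 at 43.6%, 40.8% and 33.3% and Il34 at 3.34%, 5.45% and 8.35%. In the colon the intervals of the lowest and highest SEMF tertiles overlapped for both genes. Colon trophocytes also followed their own markers, with Il33 in 22.7%, 33.1% and 44.1% of cells, whereas small intestinal trophocytes did not (45.7%, 47.0% and 47.5%).

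The receptors of the 4 cytokines were measured in the same cells. Il1rl1 was listed for the colon alone, where SEMFs held 68 UMIs (9.14 CPM) in 28 of 1105 cells, with 15 UMIs in 1 cell, and other labels held at most 5. Il1rap, its partner, was at 31.7 and 59.5 CPM in fibroblasts. Csf1r was at or below 3.71 CPM in every label, in a population sorted to leave out macrophages, and Ptprz1 did not pass 0.981 CPM. Sdc1 was highest in LECs, at 119 and 45.5 CPM. Il6st was broad, from 94.4 to 424 CPM, and Il6ra was highest in SEMFs, at 93.9 and 197 CPM, the fibroblasts that had almost no Il6. Sigirr, a negative regulator of the IL-1 receptor family, was highest in small intestinal BECs, at 30.1 CPM in 62 of 524 cells, against 11.1 CPM (3 UMIs) in colon BECs, 16.9 and 15.5 CPM in LECs and 0.727 and 0.360 CPM in fibroblasts. Of the 4 receptor genes with at least 100 UMIs in fibroblasts, none lay past 1 or -1 in pooled fibroblasts, and their median log2 ratio was -0.32. Single labels did pass these marks in both directions. Among them were Il1rap in trophocytes (-1.77), Il6ra (-1.07) and Sdc1 (-1.30) in SEMFs, and Sdc1 (1.39) and Il6st (1.08) in LECs. Of all genes, 8.24% in trophocytes and 15.1% in SEMFs lay at -1 or below, and 3.45% in LECs at 1 or above.

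Among 14 other stromal cytokines with at least 100 UMIs, 2 lay at -1 or below and 2 at 1 or above. Of all genes, 9.47% lay at -1 or below and 6.88% at 1 or above. Il1b (-2.75) and Flt3l (-1.21), a growth factor of dendritic cells, were lowest, and Il7 (1.31), a lymphocyte survival factor, and the chemokine Cxcl12 (1.00) were highest. By label, Cxcl12 was lower in the colon in trophocytes (-0.85) and higher in CD81- FBs (1.01) and SEMFs (1.15). The median of this list was 0.30. Of 15 genes of IL-6 regulation and response, 3 lay at -1 or below and none at 1 or above, with a median of -0.50. The shares of all genes beside these counts are again 9.47% and 6.88%. Nfkbiz, a cofactor of Il6 transcription, was at 66.9 CPM (colon) and 277 CPM (small intestine), a log2 ratio of -2.05, and Zfp36, which destabilises cytokine mRNA, was at 261 and 694 CPM (-1.41). The other of the 3 was Osmr, the oncostatin M receptor (-1.03), named after its value was seen. These pooled values also reflect the mix of labels. In CD81- FBs, trophocytes and SEMFs in turn, Zfp36 stood at -0.84, -0.97 and 0.53, so no single fibroblast label reached -1. Nfkbiz stood at -1.95, -1.38 and -0.56 in them, and Osmr at -0.90, -0.20 and -2.36. The highest of this list were Nfkbia, the NF-kB inhibitor (0.54), and Il11ra1 (0.33). The 12 immediate early genes had a median of -0.03, with Fosb (-1.10) and Ier2 (-0.93) lowest and Ier3 (1.97) and Btg2 (0.68) highest. Single labels differed from this pooled fibroblast value. In SEMFs every gene of the list was higher in the colon, with log2 ratios from 0.51 to 3.50. In LECs every gene but Ier3 (1.11) lay below 0, down to -3.01 (Fosb), though not every interval was clear of 0.

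Genes with the most similar pattern were sought among 5977 genes over the 12 label means of the 2 libraries, which share library, depth and composition, by Pearson's r of log2(CPM + 1). Il33 was most like Klf9 (0.89), Tle1 (0.89) and Dpysl2 (0.89), and Il34 most like Hs3st3a1 (0.95), Etv1 (0.93) and Srpx2 (0.93). Csf1 was most like Pknox2 (0.96), Casc4 (0.96) and Maged2 (0.96), and Il6 most like Smarcd2 (0.89), Trip10 (0.86) and Slc4a4 (0.86). These are the highest values of a search over 12 points, and how high unrelated genes would reach was not tested. Likeness in pattern was not likeness in range. Klf9 spanned 214 to 566 CPM against 1.75 to 453 CPM for Il33, and Smarcd2 21.4 to 55.9 CPM against 0 to 186 CPM for Il6. Etv1, a transcription factor also used as a marker of interstitial cells of Cajal, had 113 and 417 CPM in SEMFs against 44.3 and 55.3 CPM in CD81- FBs. Between the members, r was 0.67 for Il33 with Il6 and 0.75 for Il34 with Csf1, and -0.53 for Il33 with Il34.

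Positive and negative cells of 1 label were also compared, in the fibroblast label with most positive cells of each library at 3000 UMIs, by the log2 ratio after adding 10 CPM. For Il6 this was trophocytes in both libraries. The genes most raised in the Il6-positive cells were Birc3, Has1, Adamts4, Ikzf4 and Srpx in the colon and Sln, Tnfaip3, Cxcl10, Birc3 and Pde4b in the small intestine. Birc3 and Tnfaip3 are known NF-kB target genes and Has1 makes hyaluronan. Birc3 had 121 CPM in positive and 29.1 CPM in negative colon cells, and 315 and 175 CPM in small intestinal ones. Of the 50 leading genes, 9 were shared by the libraries, Birc3, Cpne8, Has1, Hk2, Itpkc, Mt1, Mt2, Pde4b and Ptgs2.

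For Csf1, compared in CD81- FBs, the leading genes were Acta2, Bicd2, Ccl2, Uspl1 and Alkbh7 in the colon and Cxcl10, Ccl2, Cxcl5, Col22a1 and Uckl1 in the small intestine, and 2 of 50 were shared, Ccl2 and Cxcl10. Ccl2, a monocyte attractant, had 78.5 CPM in positive and 53.5 CPM in negative colon cells, and 72.7 and 33.0 CPM in small intestinal ones. In the colon the share of cells with Ccl2 was 6.15% in both sets, so the gap lay in the UMIs per Ccl2-positive cell, and Acta2 was likewise found in 9.23% of positive and 9.15% of negative cells. Small intestinal cells had Ccl2 in 5.42% of the positive and 3.51% of the negative set. Il33 was compared in colon trophocytes, where Acad11, Slc25a28, Gm49767, Igfbp5 and Map1b led, and in small intestinal CD81- FBs, where Timp3, Mfap5, Col8a1, Igfbp6 and Frem2 led. Timp3, an inhibitor of metalloproteinases, had 832 CPM in the positive and 340 CPM in the negative cells. For Il34 the leading genes were Rspo1, Cd36, Ces1g, Mrvi1 and Nck2 in colon CD81- FBs and Ptcd2, Igfbp5, Inpp5k, Glis1 and Fdx2 in small intestinal SEMFs. Rspo1, an enhancer of Wnt signalling, had 24.3 CPM in Il34-positive and 3.92 CPM in Il34-negative colon cells, and was found in 6.01% and 1.08% of them. In each comparison of positive and negative cells the leading genes were the highest of 5609 to 7409 genes searched. Their ratios have no intervals and were not tested. As the labels compared differed between libraries for Il33 and Il34, the overlaps of 2 and 1 of 50 genes are not comparable with those of Il6 and Csf1.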

How the data were processed

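Stromal cells of 1 colon and 1 small intestinal library were measured with the 10x Genomics 3' version 3.1 kit, with about 16000 cells loaded each, per the labels' protocols. All values start from the deposited matrix of raw UMI counts of each library. Cell Ranger 7.1.0, Seurat 4 and build mm10 are named in the submitters' processing notes, and the filters on cells are not given in the sources used here. Cell types are the authors' deposited labels, with the colon's 3 endothelial labels joined as BECs and 3 pericyte labels as pericytes. The depth was 40684070 UMIs (colon) and 58134526 UMIs (small intestine).

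UMIs were summed per label and given as CPM with exact Poisson intervals, tissue ratios with exact conditional binomial intervals and shares of cells with Clopper-Pearson intervals, all at 95%. Ratios with a count of 0 used 3 counts in its place. Labels with at least 50 cells in both libraries were compared. Cells were thinned to 3000 UMIs by drawing without replacement (seeded). The intervals of tissue ratios and of co-detection were tested on simulated data. Counts for the tissue ratios were drawn from the Poisson model that their intervals assume. The uneven spread of UMIs among cells was not simulated, so the test does not cover its effect. Python 3.11.15, numpy 2.4.6 and scipy 1.17.1 were used. Gene positions came from GENCODE vM21 (GRCm38, the same assembly as mm10).

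The members, gene lists and alternatives were chosen with earlier results of these data known. Named genes were the members, every listed receptor, the 2 highest and 2 lowest genes of each other list by the fibroblast ratio, the 3 genes most like each member among those reaching 50 CPM, and the 5 leading genes of positive cells. Mitochondrial, ribosomal protein, haemoglobin, immunoglobulin, Y-linked genes, Xist and Tsix did not enter the last 2 searches.

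The main values include possible doublets. With 6% expected, Scrublet (scanpy 1.11.5) marked 1 colon cell (0.0166%) and 85 small intestinal cells (0.908%), too few in the colon for the call to have worked. An alternative therefore dropped the 6% of cells scoring highest, beside other depths, totals, weights of labels and sets of colon cells.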

Additional observations from a re-analysis of the deposited data

Results flagged for a closer look

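For 3 of the 4 genes the tissue ratio pointed in opposite directions in different labels, with both counting intervals on 1 side of 0. The difference between labels was not tested, since each tissue had 1 library. Colon CD81- FBs had more Il34 than small intestinal ones and colon SEMFs less, 2.35 apart on the log2 scale, and trophocytes and SEMFs were 2.32 apart. BECs and SEMFs were 4.24 apart for Il34, with 4 and 5 UMIs in BECs. Csf1 was higher in colon CD81- FBs and lower in colon SEMFs, 0.66 apart, but relative to each label's median gene both were above 0, at 0.64 and 0.10. Il6 was higher in the colon in LECs, on 10 UMIs, and lower in CD81- FBs (2.34 apart), trophocytes (2.52 apart), SMCs (4.40 apart) and BECs (at least 3.09 apart, since colon BECs had 0 UMIs). The LEC ratio of 1.36 came from 5 colon cells. It was 0.94 without the cell richest in Il6 of each library (4 UMIs in the colon). With the Y-linked set of colon cells it was 0.14, on 1 colon UMI. The 5 cells had 1867 CPM of Dcn against 595 CPM in the other LECs. These values depend on labels named in each library by the authors, and whether the labels hold the same cells in both tissues was not tested.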

How the results depend on the processing

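Of 36 recomputed fibroblast ratios, 18 stayed within the counting interval of the main value, 17 moved outside it and 1 changed sign. The sign change was Il34 with the colon cells that had Y-linked UMIs (0.10), and with the Xist cells it was -0.68. The same 2 sets gave 0.35 and 0.22 for Csf1 and -1.54 and -1.99 for Il6, and the first gave -2.10 for Il33. Relative to the median gene the ratios were -2.01 (Il33), -0.10 (Il34), 0.45 (Csf1) and -1.67 (Il6). With labels weighted equally they were -1.43, -1.08, 0.0546 and -1.12. Thinned cells gave -0.49 for Il34 and -1.96 for Il6, and the mean of each cell's own CPM gave -0.59 for Il34. Il33 and Il6 stayed at -1 or below under every one of these alternatives. The cause of these shifts was not tested beyond what each alternative changes by construction.

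In single labels 115 of 130 recomputed ratios stayed within the main interval. The Csf1 ratio of BECs fell to -0.92 without the cells of highest doublet score. With the Y-linked set the Il6 ratio of LECs was 0.14, on 1 colon UMI. Ratios of labels left with 0 colon UMIs were not recomputed. Of 123 recomputed co-detection ratios, 113 stayed within the main interval. In pooled fibroblasts 4 moved: Il33 with Il34 in the colon at 1500 UMIs (0.207), Il34 with Csf1 in the small intestine at 1500 UMIs (0.923), and Il33 with Il6 (1.04) and Csf1 with Il6 (1.07) in the small intestine without thinning. Shares of positive cells moved with depth in 66 of 96 cases, so they were compared at equal depth only. Leaving out the barcodes found in both libraries moved no ratio outside its interval. This alternative and the recomputed co-detection ratios of single labels were added after the data were seen. No paired analysis was possible because each tissue had 1 library, and for the same reason no library could be left out. In colon BECs and SMCs the depth, 269665 and 772279 UMIs, sets what can be seen.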
